A study of Mus musculus with 12 samples.

Results

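Nuclear factor kappa B (NF-kB) was followed in cultured mouse bone marrow progenitors through a set of 10 genes. They were the subunit genes Nfkb1, Nfkb2 and Relb, the inhibitor gene Nfkbia and its nuclear relatives Nfkbiz and Bcl3. The others were the feedback gene Tnfaip3 and the target genes Tnfaip2, Icam1 and Tlr2. A gene was taken from the probe sets annotated to its symbol alone, and 8 of the 10 were found, among 14860 genes measured in all, each with 1 probe set. Tests ran over all 16015 probe sets that carry a symbol. Nfkb1 and Relb were not analysed here. All groups were primary marrow cultures of C57B/6 mice labelled female that were 12 weeks old and treated with 5-FU, transduced with MSCV retroviral constructs carrying Hoxa9, a homeobox gene that keeps myeloid progenitors growing, and grown in DMEM with 15% FCS, IL3, SCF and IL6. The groups were Hoxa9 plus the vector labelled MIG in wild-type cells (3 arrays), the same genotype given miR-155 beside Hoxa9 (3), Hoxa9 with MIG in cells of miR-155 knockout mice (3), Hoxa9 with the empty vector MIY in wild-type cells (2), and Hoxa9 with its cofactor Meis1 in wild-type cells (1). The name of the Meis1 array alone ends in 3w, and whether its timing differs from that of its controls is not known from the names. The design text sets the miR-155 cultures against MIY, whereas their sample names follow the pattern of the MIG arrays, so both comparisons are given. Each value is a log2 expression level per probe set and array, and in such bulk samples fewer cells of a type and less RNA per cell cannot be told apart.

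NF-kB is a family of dimeric transcription factors held in the cytoplasm by inhibitors, the IkB proteins. Signals from Toll-like, interleukin-1 and tumour necrosis factor receptors reach the IkB kinase complex, which marks the inhibitor for destruction and lets the dimer enter the nucleus. Among the first genes it switches on are its own inhibitors and the ubiquitin-editing enzyme Tnfaip3, so their transcripts are commonly read as a record of recent NF-kB activity in myeloid cells. The level of an NF-kB subunit transcript says little about that activity, which is set largely by protein movement.

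The promoters of the genes are shown because binding to kappa B elements near the start is the known route by which this family feeds back on itself. Windows of 250 bases before to 50 bases after a transcript start (RefSeq, GRCm38.p6) were on hand for 7 of the 10 genes. The kappa B consensus of 10 bases, GGGRNNYYCC, was searched on both strands with overlaps allowed. In it R is A or G, Y is C or T and N is any base. A match was found for 6 of these 7 genes, and for 9.55% of 27025 genes with such windows. The genes were chosen as known NF-kB targets, so this count is a description of the set. The sequences run 5′ to 3′ in the direction of the gene, and capitals mark every base within a match.
Tnfaip3, chr10:19015361-19015660, minus strand: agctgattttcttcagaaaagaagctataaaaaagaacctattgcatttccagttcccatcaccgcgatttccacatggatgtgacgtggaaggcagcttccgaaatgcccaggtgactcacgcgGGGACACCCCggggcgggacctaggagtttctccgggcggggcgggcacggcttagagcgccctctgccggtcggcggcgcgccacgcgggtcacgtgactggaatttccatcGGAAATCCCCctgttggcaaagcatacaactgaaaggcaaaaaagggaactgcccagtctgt
Nfkbia, chr12:55492598-55492897, minus strand: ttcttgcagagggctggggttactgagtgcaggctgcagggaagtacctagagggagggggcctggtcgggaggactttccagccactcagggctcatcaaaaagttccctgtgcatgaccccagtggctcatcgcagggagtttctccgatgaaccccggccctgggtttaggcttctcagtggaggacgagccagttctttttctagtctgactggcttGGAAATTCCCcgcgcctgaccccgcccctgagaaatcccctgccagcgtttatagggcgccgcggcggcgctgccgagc
Bcl3, chr7:19822706-19823005, minus strand: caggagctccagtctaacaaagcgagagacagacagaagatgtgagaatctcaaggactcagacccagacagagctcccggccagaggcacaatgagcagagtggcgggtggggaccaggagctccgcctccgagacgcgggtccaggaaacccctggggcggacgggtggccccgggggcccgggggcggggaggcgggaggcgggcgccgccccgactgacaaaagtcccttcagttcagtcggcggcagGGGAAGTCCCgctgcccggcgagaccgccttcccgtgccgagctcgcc
Tlr2, chr3:83841559-83841858, minus strand: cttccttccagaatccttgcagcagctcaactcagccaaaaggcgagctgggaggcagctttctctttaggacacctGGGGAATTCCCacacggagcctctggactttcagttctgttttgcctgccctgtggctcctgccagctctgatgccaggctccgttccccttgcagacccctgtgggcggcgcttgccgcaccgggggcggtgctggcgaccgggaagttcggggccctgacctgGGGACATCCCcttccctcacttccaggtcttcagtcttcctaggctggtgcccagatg
Icam1, chr9:21015690-21015989, plus strand: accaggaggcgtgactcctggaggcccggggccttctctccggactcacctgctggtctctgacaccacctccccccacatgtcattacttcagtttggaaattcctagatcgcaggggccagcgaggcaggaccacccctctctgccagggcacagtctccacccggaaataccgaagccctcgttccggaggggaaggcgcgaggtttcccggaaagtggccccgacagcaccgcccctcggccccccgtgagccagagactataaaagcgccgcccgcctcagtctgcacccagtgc
Tnfaip3 held 2 matches, the nearer one starting 12 bases before the transcript start, and Nfkbia held 1, starting 29 bases before it. In Bcl3 the single match began at base 3 of the transcript. Tlr2 held 3 matches, of which 2 overlap each other by all but 1 base. Icam1 had no match to this consensus in its window, and neither did a further window of Tnfaip3. The Icam1 window does hold tggaaattcc, which differs from the consensus only at its first base. Nfkb2 had matches in each of 3 windows and Tnfaip2 had 1 in its window. Of the Nfkb2 windows 2 overlap, and the only match in the last is a site also counted in the one before it. The AP-1 consensus TGANTCA, also searched on both strands, was found for 2 of the 7 genes, Nfkb2 and Tnfaip3, against 8.97% of all genes.

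The agent added in one group and absent from another is miR-155, a microRNA made in activated myeloid cells, where NF-kB is known to induce its host gene. Its main mature strand is shown with the seed, bases 2 to 8, in capitals, because the seed sets which transcripts pair with it.
mmu-miR-155-5p, chr16:84714143-84714165, plus strand: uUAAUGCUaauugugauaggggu
No probe set was named for miR-155, so its own level was not analysed here.

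Hoxa9 read 13.19 to 13.41 on 11 arrays and 13.07 on the Meis1 array, and Meis1 itself read 12.11 where it was added and 6.74 to 8.10 on all other arrays. Of the marrow markers, the stem cell factor receptor Kit read 9.25 to 10.06 and the pan-leukocyte gene Ptprc 10.49 to 11.16 over all arrays. Others varied more. Mpo read 10.99 on the Meis1 array and 12.71 to 13.39 on the other 11 arrays. Csf1r read 6.10 on the Meis1 array and 9.08 to 10.48 on the other 11. Cd34 ranged from 9.36 to 10.70, with both ends on MIY arrays. The MIY and Meis1 arrays stood apart: MIY correlated at 0.945 to 0.975 with the other groups and Meis1 at 0.945 to 0.976, against 0.989 to 0.995 between the MIG, miR-155 and knockout groups. Although all donors were labelled female, the Y-linked gene Eif2s3y stood at 9.23 and 9.31 in MIY and at 8.24 with Meis1, while the other 9 arrays lay between 2.22 and 2.48, so MIY or Meis1 against MIG, miR-155 or the knockout sets arrays that go against that label beside arrays that do not. The control mean used for Meis1 mixes both kinds, and Meis1 against MIY alone compares arrays that all go against it. The interferon-stimulated gene Mx1 read 8.95 and 9.31 in MIY and at most 3.86 on every other array.

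**Figure D1:**
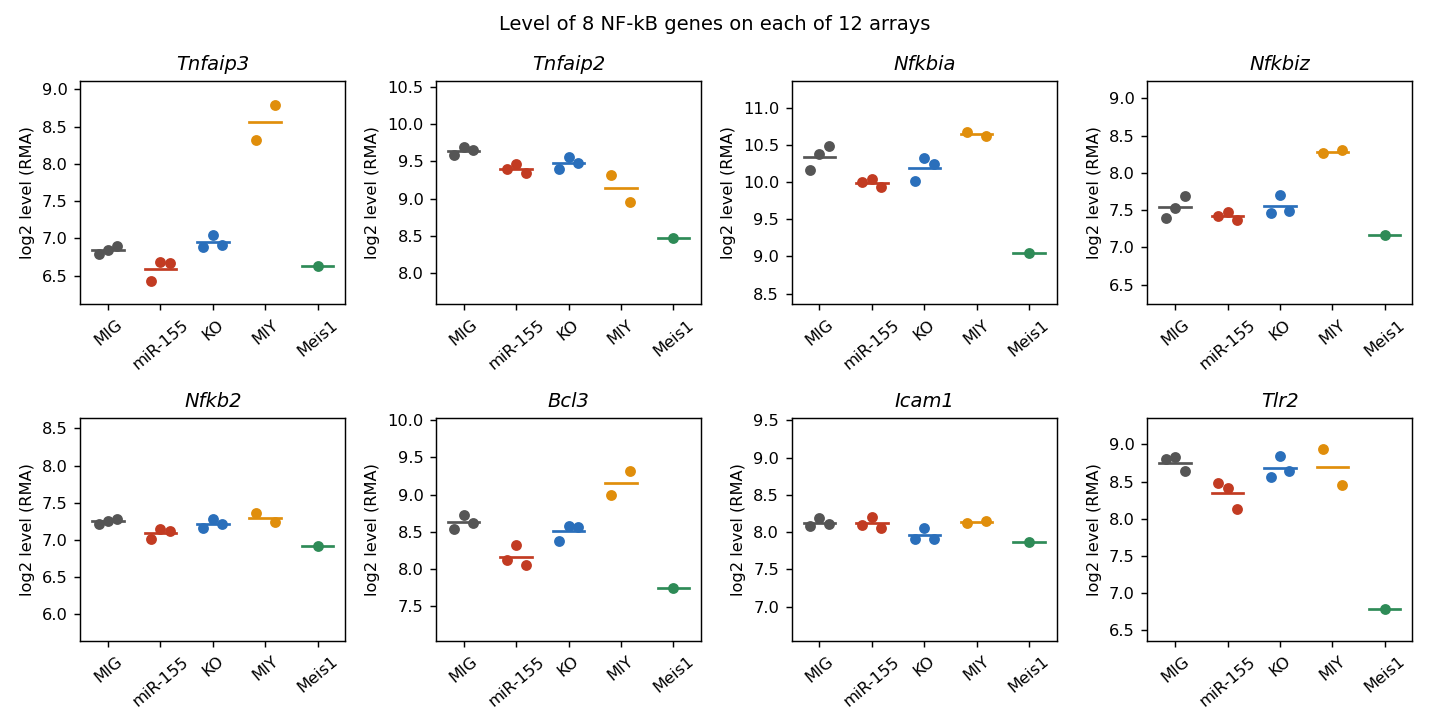
Log2 level of each of the 8 genes (vertical axis, the same span of 3 units in every panel, at its own height) on each array, by group; points are arrays in the order of their labels and lines are group means. Tnfaip3, Nfkbiz, Nfkbia and Bcl3 are highest on both MIY arrays. For 7 of the 8 genes the lowest group mean is on the single Meis1 array, Tnfaip3 being the exception.

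The spread over the 5 groups differed widely between the genes. The group means spanned 1.97 for Tlr2, 1.96 for Tnfaip3, 1.605 for Nfkbia, 1.40 for Bcl3, 1.18 for Tnfaip2 and 1.12 for Nfkbiz on the log2 scale. The span was 0.38 for Nfkb2 and 0.27 for Icam1. Of all tested probe sets, 96.7% had a smaller span than Tlr2 and 17.2% a smaller one than Icam1.

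Comparing the vector controls MIY and MIG, both in wild-type cells, shows how far the set moved without any change in miR-155 by design. Tnfaip3, which removes activating ubiquitin chains and shuts the pathway down, read 8.32 and 8.80 in MIY and 6.79, 6.84 and 6.89 in MIG. The MIY arrays were higher than all 10 others. It rose 3.28-fold, by 1.72 ± 0.13 (log2, SE, limma adjusted p = 1.37e-05). Nfkbiz, a nuclear IkB protein needed for late NF-kB genes such as Il6, read 8.26 and 8.30 in MIY and 7.40, 7.53 and 7.69 in MIG, again without overlap. It rose by 0.74 ± 0.10 (adjusted p = 0.00036). Bcl3, a nuclear IkB protein that binds dimers of the NF-kB subunits lacking their own activation domain, read 8.99 and 9.32 in MIY and 8.54, 8.73 and 8.62 in MIG. It rose by 0.52 ± 0.12 (adjusted p = 0.00576). This call was lost without MIY array 2 (0.36, adjusted p = 0.0529).

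Nfkbia, the classical cytoplasmic inhibitor, read 10.67 and 10.62 in MIY and 10.16, 10.38 and 10.49 in MIG. It rose by 0.31 ± 0.11, just past the threshold (limma adjusted p = 0.0463). Its call was lost without MIG array 1 (0.22, adjusted p = 0.14), MIG array 2 (0.33, 0.0733), MIY array 1 (0.28, 0.136) or MIY array 2 (0.33, 0.0995), and in the fit on these groups alone (adjusted p = 0.0904). Tnfaip2, a cytokine-induced protein of membrane protrusions, went the other way, from 9.59, 9.69 and 9.66 in MIG to 9.32 and 8.95 in MIY. It fell by 0.51 ± 0.11 (adjusted p = 0.0035). Nfkb2, the precursor subunit of the noncanonical pathway (0.05 ± 0.08), the adhesion molecule Icam1 (0.01 ± 0.08) and the lipoprotein receptor Tlr2 (-0.06 ± 0.16) did not pass.

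In all, 4 of the 8 genes rose and 1 fell, where 49.5% of all probe sets were called, 9.1% higher and 40.4% lower in MIY. The arrays of the groups did not overlap for 5 of the 8 genes and for 65.9% of all probe sets. The median change of the 8 genes was 0.18 and that of all probe sets was -0.22. Because that median lies so far from 0, changes were also taken after each array was shifted to a common median difference of 0. After the shift, 3179 probe sets were higher and 2993 lower, and 6 of the 8 genes were higher and 0 lower. Tnfaip3 then stood at 1.94, Nfkbiz at 0.97, Bcl3 at 0.75, Nfkbia at 0.53 (adjusted p = 0.00414), Nfkb2 at 0.27 (adjusted p = 0.00995) and Icam1 at 0.23 (adjusted p = 0.0283). Tnfaip2 no longer passed (-0.28, adjusted p = 0.0522), and Tlr2 turned to 0.16 without passing. The interferon-stimulated list was higher in the same arrays, with all 8 measured of its 14 genes called higher and a summed level, on the linear scale, of 7275 to 8849 in MIY and 454.1 to 493.1 in MIG. All 7 mast cell and basophil markers were lower, at a summed level of 4048 to 4389 in MIY and 13040 to 15460 in MIG, as were 2 of 5 eosinophil markers (670.9 to 1113 against 2871 to 3978) and 3 of 4 dendritic cell markers (1839 to 2513 against 4979 to 5640). Of 7 monocyte and macrophage markers, 2 were higher, Fcgr1 (1.43 ± 0.29) and Adgre1 (0.56 ± 0.07), and 3 lower. The part of these differences in the NF-kB values was not tested.

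**Figure D2:**
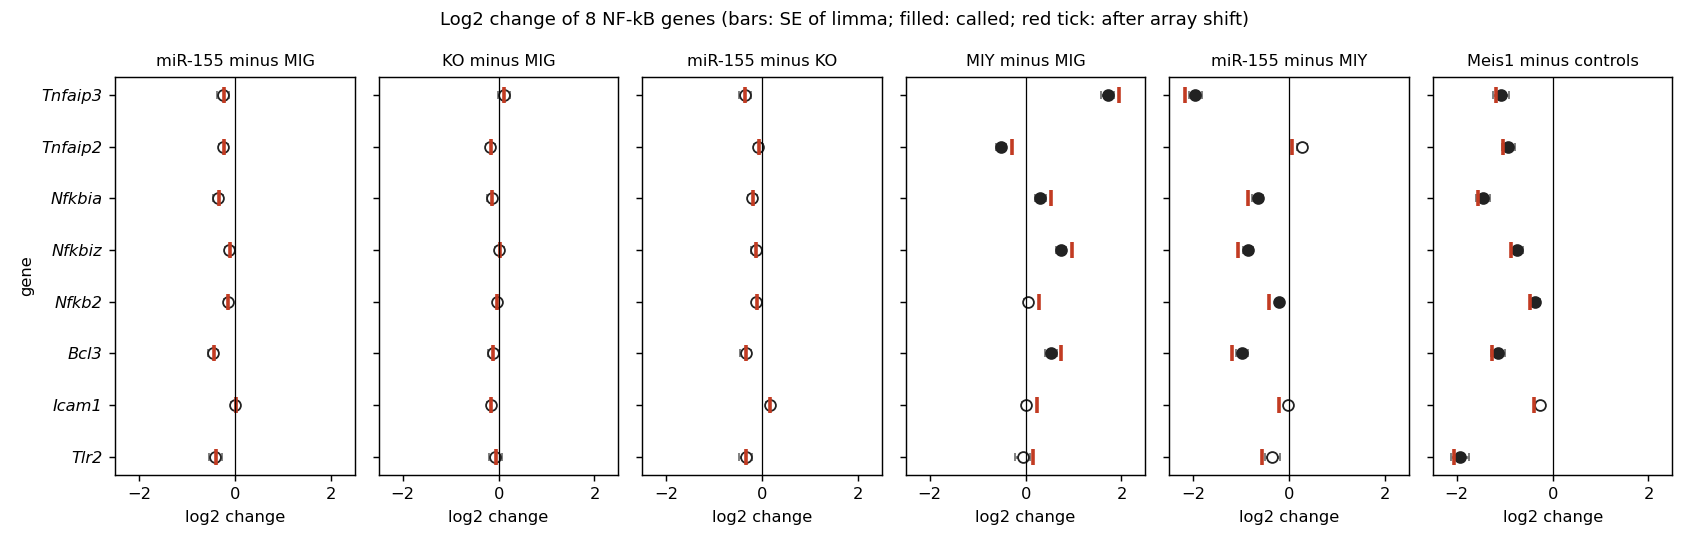
Log2 change (horizontal axis) of each gene in 6 comparisons; bars are limma standard errors, filled points passed at an adjusted p under 0.05, and red ticks are the changes after each array was shifted to a common median difference. The filled points lie in the 3 comparisons that involve MIY or Meis1, and in none of the other 3.

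Around these genes, the other parts of the pathway split in MIY. In this comparison 9.1% of all probe sets were called higher and 40.4% lower. Of 20 measured signalling genes and inhibitors outside the set, from a list of 24, 6 were higher and 5 lower than in MIG, with a median of -0.12. The higher ones were Tnip1 (0.66 ± 0.09, limma adjusted p = 0.000325), a partner of the Tnfaip3 protein, the IkB gene Nfkbie (0.60 ± 0.09), Tnip3 (0.53 ± 0.16), the deubiquitinase Cyld (0.44 ± 0.08), the subunit Rel (0.35 ± 0.12) and the kinase Tbk1 (0.26 ± 0.07). The lower ones were the subunit Rela (-0.80 ± 0.10, adjusted p = 0.000152), the nuclear IkB Nfkbid (-0.73 ± 0.20), the kinase Ikbkb (-0.63 ± 0.09), the ubiquitin ligase Traf6 (-0.43 ± 0.09) and Tab1 (-0.36 ± 0.09). Without MIY array 2, Rel (0.20), Nfkbid (-0.32) and Tbk1 (0.22) lost their calls. Tnip3 lost its call without MIY array 1 (0.28), MIG array 1 or MIG array 2, and Rel without MIG array 2 or 3. After the array shift, 6 of the 20 were higher and 2 lower.

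**Figure D3:**
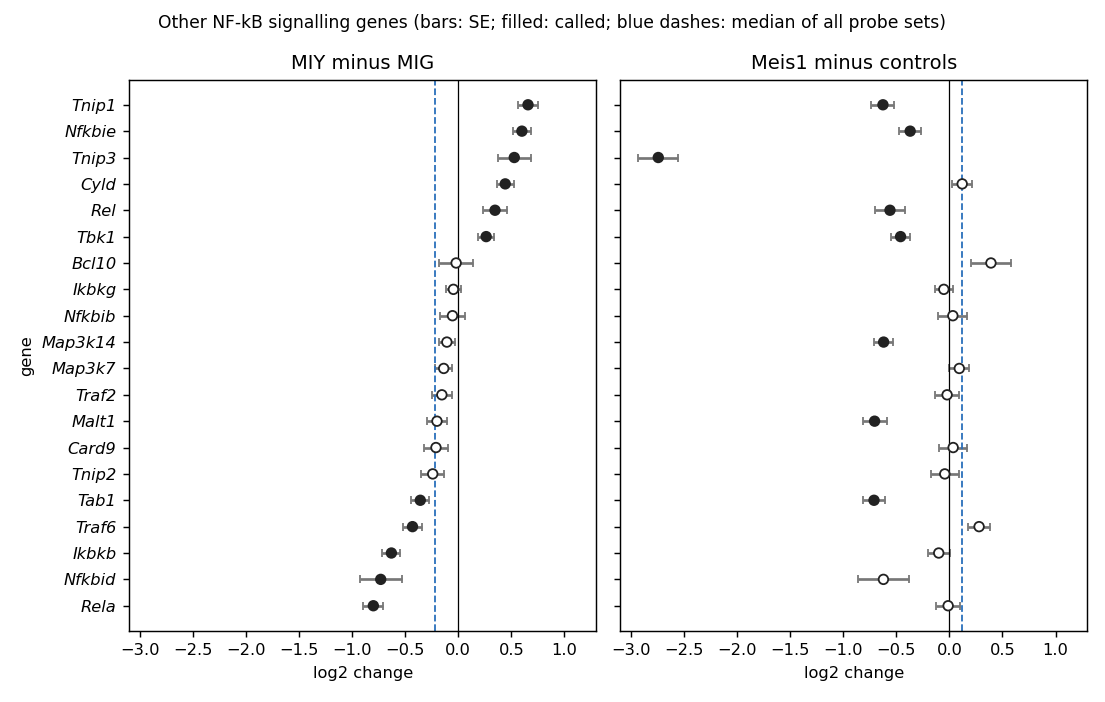
Log2 change (horizontal axis) of 20 other NF-kB signalling genes in MIY against MIG and on the Meis1 array against the mean of MIG and MIY; bars are limma standard errors, filled points passed, and blue dashes mark the median of all probe sets. In MIY 6 genes lie to the right and 5 to the left among the filled points, and with Meis1 all 8 filled points lie to the left.

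Other known NF-kB targets also went both ways. Of 29 measured from a list of 30, 10 were higher and 11 lower in MIY than in MIG, and 12 and 9 after the array shift. Before the shift, the shares of all probe sets were 9.1% higher and 40.4% lower. Ccl5, a chemokine that is also an interferon-response gene, rose by 5.65 ± 0.27 (limma adjusted p = 4.97e-07), a size that is inexact because it read only 4.37 in MIG and no measure of background was used, the transcription factor Irf1 by 1.22 ± 0.09 and the stress gene Gadd45b by 0.89 ± 0.09. The urokinase receptor Plaur fell by 1.75 ± 0.19 and the endocytic protein Ehd1 by 0.997 ± 0.09. Chosen after their values were seen, the inhibitor of apoptosis Birc3 rose by 0.69 ± 0.09, while the cytokines Tnf and Il6 fell by 1.39 ± 0.23 and 1.67 ± 0.20 and the chemokine Cxcl2 by 1.70 ± 0.22. Each of these 9 calls held in all 5 runs that left out 1 array, although Tnf stood at -0.87 without MIY array 2. Cytokine genes thus did not all fall. Also chosen after their values were seen, Il1b rose by 0.93 ± 0.21 and Il1a by 0.79 ± 0.25, while Il1rn fell by 0.96 ± 0.25 and Csf2 by 0.67 ± 0.21. The Il1a call was lost in 4 of the 5 runs and the Csf2 call in 2. Csf2, which read only 3.73 in MIY and 4.40 in MIG, also missed after the array shift (limma adjusted p = 0.117) and quantile normalization (0.133). Il1rn stood at -0.39 without MIY array 2 and missed in the fit on these groups alone (limma adjusted p = 0.0643). Of 26 measured receptors and adaptors from a list of 29, 6 were higher, such as Tlr1 (1.23 ± 0.22), and 7 lower, such as Tlr4 (-0.69 ± 0.10), the interleukin-1 receptor chain Il1rap (-0.81 ± 0.12), the tumour necrosis factor receptor Tnfrsf1a (-0.64 ± 0.11) and the kinase Irak1 (-0.56 ± 0.09). After the shift 7 were higher and 5 lower.

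The comparison of added miR-155 with MIG asks whether the microRNA alters this pathway in Hoxa9 cells. None of the 8 genes passed limma's test over all genes, where 3.29% of all probe sets were called, 2.68% lower and 0.612% higher, and 5 of the 8 had an unadjusted p under 0.05. All 8 changes were below 0, that of Icam1 barely so and above 0 after the array shift (0.015), with a median of -0.25 against -0.01 over all probe sets. Bcl3 came nearest, at 8.12, 8.33 and 8.05 with miR-155 and 8.54, 8.73 and 8.62 in MIG. The arrays did not overlap, and the change was -0.46 ± 0.11 (adjusted p = 0.0502). It passed in the fit on these 2 groups (adjusted p = 0.036), in that without the MIY and Meis1 arrays (0.0182), after quantile normalization (0.0483), with dim probe sets left out (0.0245) and without miR-155 array 2 (-0.54, adjusted p = 0.0441), and missed after the array shift (0.0516).

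Tlr2 read 8.48, 8.41 and 8.13 with miR-155 and 8.80, 8.82 and 8.64 in MIG. Its change was -0.41 ± 0.14 (limma adjusted p = 0.168). Nfkbia read 10.002, 10.04 and 9.93 with miR-155 and 10.16, 10.38 and 10.49 in MIG. Its change was -0.35 ± 0.10 (adjusted p = 0.112). Tnfaip3 (-0.25 ± 0.12), Tnfaip2 (-0.24 ± 0.10) and Nfkb2 (-0.16 ± 0.07) also had no overlap between the groups, and Nfkbiz (-0.12 ± 0.09) and Icam1 (-0.0047 ± 0.07) overlapped. Groups without overlap made up 6 of the 8 genes here and 25.1% of all probe sets. Markers of several mature cell types moved in the same arrays. Of 7 monocyte and macrophage markers measured from a list of 9, 5 were lower and Cd14 (-0.07) and Fcgr1 (-0.12) did not pass, and the summed level of the 7 was 6876 to 7208 with miR-155 and 11780 to 12340 in MIG, with Mrc1 the lowest marker at a mean of 8.22. All 7 mast cell and basophil markers were lower, such as the protease Prss34 (-2.12 ± 0.09), at a summed level of 5429 to 6339 with miR-155 and 13040 to 15460 in MIG. Of 5 eosinophil markers 3 were lower, at a summed level of 820 to 980.1 against 2871 to 3978, with Il5ra the lowest at 3.21 and 3.26. Of 4 dendritic cell markers Cd74 alone passed (-1.11 ± 0.16). The part of these markers in the NF-kB values was not tested.

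More of the pathway outside the set passed, where 2.68% of all probe sets were called lower and 0.612% higher. Of the 29 other targets, 6 were lower with miR-155 and 0 higher, among them Il6 (-1.48 ± 0.18, limma adjusted p = 0.00185), whose call held in all 6 runs that left out 1 array. Il1a (-1.22 ± 0.23), Cxcl2 (-0.91 ± 0.19), Ccl2 (-1.50 ± 0.34), Plaur (-0.72 ± 0.17) and the mRNA-destabilising protein Zfp36 (-0.92 ± 0.20) each lost the call in 2 to 6 of these runs. Of the 26 receptors and adaptors, 4 were lower, headed by the RNA sensor Tlr8 (-1.29 ± 0.17, adjusted p = 0.00314). The others were Tlr1 (-0.88 ± 0.20), the adaptor Myd88 (-0.58 ± 0.13) and Tnfrsf11a (-0.58 ± 0.12), and these 3 lost the call in 4 to 6 of the runs. Of the 20 signalling genes, Tnip3 alone was lower (-0.90 ± 0.14, adjusted p = 0.00725), and its call held in all 6 runs. Against MIY, where 48.3% of all probe sets were called, only part of these falls was seen. Il1a (-2.01 ± 0.25), Tlr8 (-1.57 ± 0.19), Tlr1 (-2.11 ± 0.22), Tnfrsf11a (-0.40 ± 0.13) and Tnip3 (-1.43 ± 0.16) were again lower. Plaur (1.03 ± 0.19) and Cxcl2 (0.79 ± 0.22) were higher instead. Il6 (0.20 ± 0.20), Ccl2 (-0.11 ± 0.38), Zfp36 (-0.01 ± 0.23) and Myd88 (-0.24 ± 0.14) did not pass there.

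Of 8 measured published targets of miR-155, chosen for roles in or next to this pathway from a list of 9, 5 were lower with miR-155 than in MIG. They were Jarid2 (-0.76 ± 0.06), Bach1 (-0.53 ± 0.07), Csf1r (-1.09 ± 0.20), Inpp5d (-0.39 ± 0.06) and Tab2 (-0.39 ± 0.08, limma adjusted p = 0.0359), the last an adaptor that links Traf6 to the kinase Map3k7. The call of Tab2 was lost in all 6 runs that left out 1 array (-0.42 to -0.35) and after quantile normalization (adjusted p = 0.0966). Csf1r lost its call in 5 of the runs (-1.16 to -1.002), and Inpp5d without MIG array 3. Csf1r is also among the monocyte and macrophage markers counted above, so the same fall enters both lists. The target nearest to NF-kB itself, the IkB kinase-related Ikbke, had -0.13 ± 0.10, and the death-domain adaptor Fadd had -0.26 ± 0.19, without passing.

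**Figure D4:**
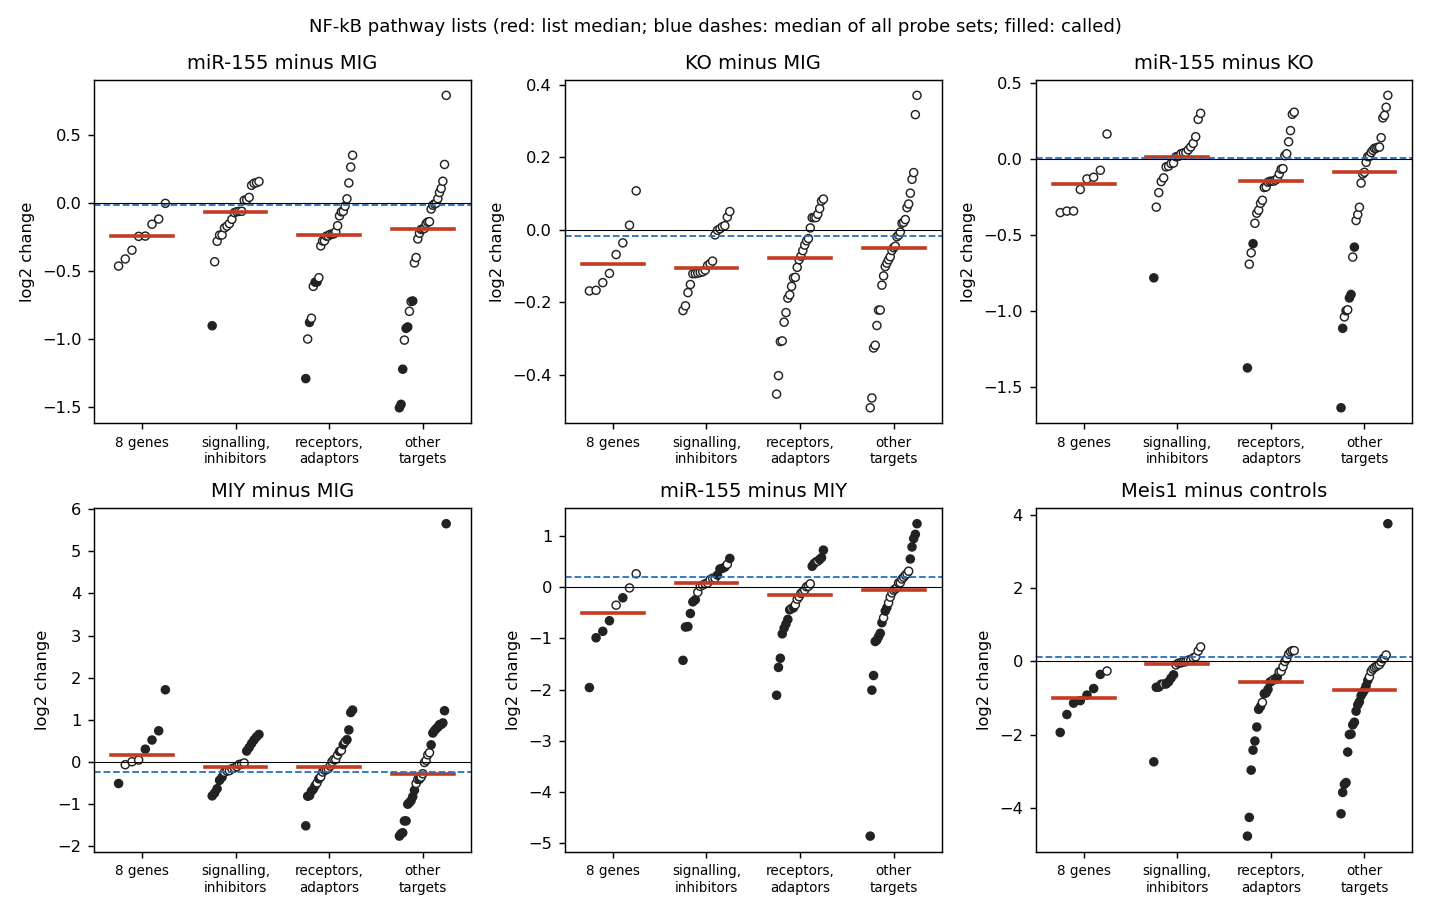
Log2 change (vertical axis, its own scale in each panel) of every measured gene in 4 lists, by comparison: the 8 genes, 20 other signalling genes and inhibitors, 26 receptors and adaptors, and 29 other targets. Filled points passed, red lines are list medians and blue dashes the median of all probe sets; with added miR-155 against MIG the 11 filled points all lie below 0, and in the knockout there are none.

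Loss of miR-155 gave no call among the 8 genes. In the comparison of the knockout with MIG, 0 of the 8 genes passed limma's test, 1 had an unadjusted p under 0.05, and 0.0312% of all probe sets were called (0.0187% higher and 0.0125% lower), with 774 at an unadjusted p under 0.05. The median change was -0.09 against -0.02 over all probe sets. Icam1 read 7.91, 8.06 and 7.91 in the knockout and 8.08, 8.19 and 8.10 in MIG, a change of -0.17 ± 0.07 (adjusted p = 0.996). Tnfaip2 (-0.17 ± 0.10) also did not overlap between the groups, as 14.8% of all probe sets did not. Tnfaip3 read 6.88, 7.05 and 6.92 in the knockout, a change of 0.11 ± 0.12. No gene of the 3 other pathway lists passed, and the smallest p was that of the chemokine Ccl4 (-0.49 ± 0.10, adjusted p = 0.406).

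Against the knockout, added miR-155 again gave no call among the 8 genes by limma, with 4.06% of all probe sets called (1.09% higher and 2.98% lower) and 4 of the 8 at an unadjusted p under 0.05. This comparison and that with MIG share the miR-155 arrays. Tnfaip3 had the largest change, from 6.88, 7.05 and 6.92 in the knockout to 6.43, 6.68 and 6.67 with miR-155. The arrays did not overlap, as for 3 other genes of the 8 and for 24.5% of all probe sets, and the change was -0.35 ± 0.12 (adjusted p = 0.166). It passed in the fit without the MIY and Meis1 arrays (adjusted p = 0.0343). Bcl3 and Tlr2 each had -0.34, with standard errors of 0.11 and 0.14, and Icam1 alone was positive (0.16 ± 0.07). Among other targets 6 of 29 were lower and 0 higher, including Il6 (-1.64 ± 0.18) and Il1b (-1.11 ± 0.19), whose calls held in all 6 runs without 1 array. In the same comparison 7 of 7 mast cell and basophil markers and 5 of 7 monocyte and macrophage markers were lower with miR-155, and their part was not tested.

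Set against MIY, the comparison that the design text names, 5 of the 8 genes were lower with miR-155 and 0 higher, where 48.3% of all probe sets were called, 9.85% lower and 38.5% higher. The arrays did not overlap for 6 of the 8 and for 62.7% of all probe sets. These were Tnfaip3 (-1.96 ± 0.13, limma adjusted p = 8.58e-06), Bcl3 (-0.99 ± 0.12), Nfkbiz (-0.86 ± 0.10), Nfkbia (-0.66 ± 0.11) and Nfkb2 (-0.21 ± 0.08, adjusted p = 0.0453). The Nfkb2 call was lost without miR-155 array 1 (adjusted p = 0.125), array 2 (0.0528) or array 3 (0.0652), or without MIY array 1 (0.207). Tnfaip2 gained a call without MIY array 1 (0.45, adjusted p = 0.00428) and Tlr2 without MIY array 2 (-0.59, adjusted p = 0.0161). The same genes against MIG had -0.25 for Tnfaip3, -0.46 for Bcl3, -0.12 for Nfkbiz, -0.35 for Nfkbia and -0.16 for Nfkb2, so the size of each change depended on which vector group was the control. The median of all probe sets was 0.21 here. After the array shift, 7 of the 8 genes were lower and 0 higher, with 2917 probe sets higher and 3143 lower in all, and the change was -2.17 for Tnfaip3, -1.19 for Bcl3, -1.07 for Nfkbiz and -0.86 for Nfkbia. In the same arrays the interferon-stimulated list summed to 580.8 to 642.7 with miR-155 and 7275 to 8849 in MIY. Monocyte and macrophage markers summed to 6876 to 7208 with miR-155 and 9729 to 12600 in MIY. Mast cell and basophil markers summed to 5429 to 6339 with miR-155 and 4048 to 4389 in MIY. The part of these differences in the NF-kB values was not tested.

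With Meis1, most of the set stood lowest. The 1 array was compared with the average of the MIG and MIY group means, and its spread had to be borrowed from the replicated groups. Tlr2, the receptor that senses bacterial lipoproteins, read 6.78 on it, against 8.13 to 8.93 on the other 11 arrays. It fell 3.84-fold, by 1.94 ± 0.19 (log2, SE, limma adjusted p = 6.72e-05). Nfkbia read 9.04 against 9.93 to 10.67 elsewhere. It fell by 1.45 ± 0.14 (adjusted p = 6e-05). Bcl3 read 7.75 against 8.05 to 9.32, Tnfaip2 8.47 against 8.95 to 9.69 and Nfkbiz 7.17 against 7.36 to 8.30. They fell by 1.14 ± 0.15, 0.92 ± 0.13 and 0.74 ± 0.12. Tnfaip3 read 6.63, which lay among the miR-155 arrays (6.43 to 6.68), and Nfkb2 read 6.92 against 7.02 to 7.37. Their changes were -1.07 ± 0.16 and -0.36 ± 0.09 (adjusted p = 0.0173).

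Thus 7 of the 8 genes were lower and 0 higher with Meis1, where 27.1% of all probe sets were called, 9.93% lower and 17.1% higher. The Meis1 array lay outside the MIG and MIY arrays for 8 of the 8 and for 47.2% of all probe sets. Icam1 had -0.27 ± 0.10 (limma adjusted p = 0.0649). The median change was -0.998 against 0.11 over all probe sets, and after the array shift 8 of 8 were lower, with 1532 probe sets higher and 2195 lower in all. Because MIY is high for several of these genes, the control matters. Against MIG alone 5 passed, with 15.4% of all probe sets called, and Tlr2 (-1.97), Nfkbia (-1.30), Tnfaip2 (-1.18), Bcl3 (-0.88) and Nfkb2 (-0.33) were lower. Tnfaip3 (-0.22, adjusted p = 0.475) and Nfkbiz (-0.37, adjusted p = 0.0869) did not pass against MIG alone. Against MIY alone 7 passed, with 44.1% of all probe sets called, and Tnfaip3 had -1.93 and Nfkbiz -1.12.

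Among the other pathway lists, calls with Meis1 were mostly of lower levels, where 9.93% of all probe sets were called lower and 17.1% higher. These lists were compared only with the average of the MIG and MIY group means, so a call may rest on 1 control. Of 26 receptors and adaptors, 15 were lower with Meis1 and 0 higher, among them Tlr7 (-4.77 ± 0.41), Tlr8 (-4.26 ± 0.23), Il1r1 (-2.97 ± 0.33), the decoy receptor Il1r2 (-2.42 ± 0.26) and Tlr1 (-2.17 ± 0.26). Of these 15 calls, 5 (Tlr6, Cd14, Myd88, Tnfrsf11a and Nod2) were lost in at least 1 run without a MIG or MIY array, and 6, the same 5 and Nod1, in the fit on these groups alone. Of 29 other targets, 17 were lower, such as Il1b (-4.16 ± 0.26, limma adjusted p = 3.47e-06), Il6 (-3.35 ± 0.24), Il1a (-3.31 ± 0.31), the ribonuclease Zc3h12a (-1.66 ± 0.15) and Ccl4 (-1.36 ± 0.14), and 1 was higher, the adhesion molecule Vcam1 (3.75 ± 0.59). Of 20 signalling genes 8 were lower, led by Tnip3 (-2.74 ± 0.19), Map3k14 (-0.62 ± 0.09), Tab1 (-0.71 ± 0.10), Malt1 (-0.70 ± 0.11) and Tnip1 (-0.63 ± 0.11), while Rela (-0.01 ± 0.11) and Ikbkb (-0.10 ± 0.10) did not pass. Tlr7, Tlr8, Il1r1 and Il6 read between 3.38 and 4.19 on the Meis1 array. No measure of background was used, so the sizes of such falls are inexact. The Meis1 array lay below all MIG and MIY arrays for the 15 lower receptors and adaptors. The same held for every lower signalling gene but Nfkbie, which read 7.45 with Meis1 and averaged 7.52 in MIG and 8.12 in MIY. Among the targets, MIG and MIY themselves stood far apart for some, such as Ccl5, Plaur and Ehd1. A fall from their average therefore need not hold against each control.

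On the same array 6 of the 7 monocyte and macrophage markers were lower and 1 was higher. The summed level of the 7 monocyte and macrophage markers was 3481 with Meis1, 9729 to 12600 in MIY and 11780 to 12340 in MIG, and Csf1r read 6.10 against 10.36 ± 0.06 (SD, n = 3) in MIG. The lowest of these markers was Mrc1, at 3.89. All 8 late neutrophil markers were lower, at a summed level of 5915 with Meis1 and 26170 to 28710 in MIG. The 5 progenitor markers summed to 8707 with Meis1, 5730 to 6745 in MIY and 7332 to 7456 in MIG, and they split by gene. Against the average of the MIG and MIY group means, Flt3 (2.44 ± 0.26), Myb (0.66 ± 0.09) and Kit (0.43 ± 0.10) were higher. Ptprc was lower (-0.47 ± 0.10), and Cd34 had 0.41 ± 0.34. All 7 mast cell and basophil markers were below the average of the MIG and MIY group means as well. Their summed level was 4171 with Meis1 and 13040 to 15460 in MIG, but 4048 to 4389 in MIY. The Meis1 array thus lay within the MIY range and below MIG only. The part of these differences in the falls of the NF-kB genes was not tested.

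**Figure D5:**
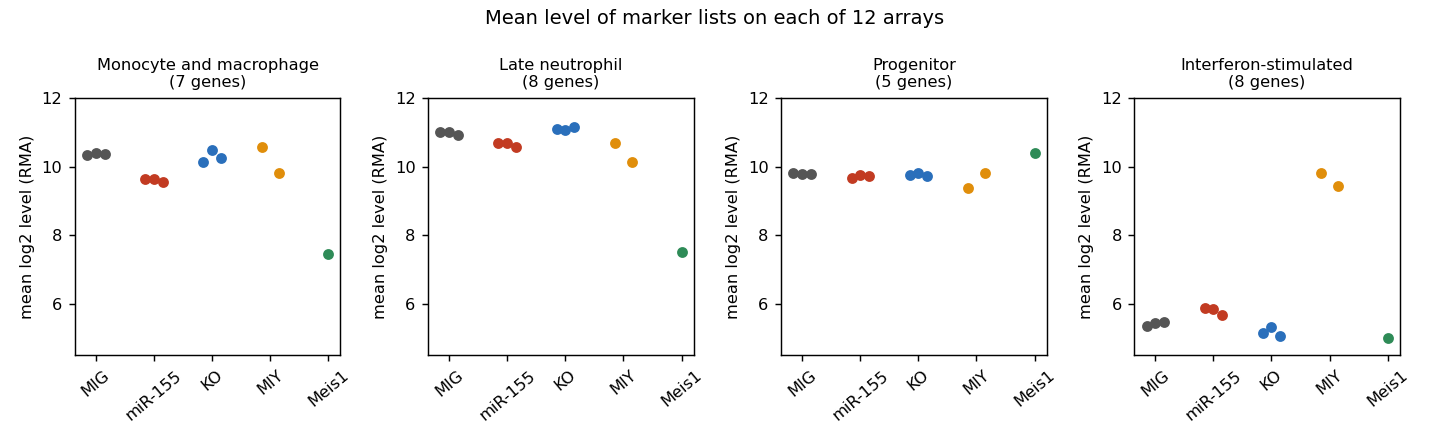
Mean log2 level (vertical axis) of 4 marker lists on each array, by group. Monocyte and macrophage markers are at 7.46 and late neutrophil markers at 7.52 on the Meis1 array, below every other array, and interferon-stimulated genes are at 9.42 and 9.82 on the MIY arrays, above every other array.

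Ordered by group mean, MIY led for Tnfaip3, Nfkbia, Nfkbiz, Nfkb2, Bcl3 and Icam1, and MIG for Tnfaip2 and Tlr2. The step from MIY to the next group passed limma's test for Tnfaip3 (1.61 above the knockout, adjusted p = 2.06e-05), Nfkbiz (0.73 above the knockout, 0.000421), Bcl3 (0.52 above MIG, 0.00576) and Nfkbia (0.31 above MIG, 0.0463), and not for Nfkb2 or Icam1. At the low end, the step down to Meis1 passed for Tlr2 (1.56 below miR-155, adjusted p = 0.000695), Nfkbia (0.95 below miR-155, 0.00215) and Tnfaip2 (0.67 below MIY, 0.00477). It did not pass for Bcl3 (0.41 below miR-155, 0.128), Nfkbiz (0.25 below miR-155, 0.276), Nfkb2 or Icam1. The other neighbouring steps, those among MIG, the knockout and miR-155 included, did not pass for any of the 8 genes. Of all probe sets, 46.8% were called between the knockout and MIY and 10.1% between miR-155 and Meis1.

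Likeness of pattern was measured as the root mean square difference of log2 level over the 12 arrays after each gene was centred on its own mean. Among the 8 genes the closest pair was Nfkb2 and Icam1 (0.117), both nearly flat, followed by Nfkbiz and Bcl3 (0.185) and Nfkbia and Bcl3 (0.185). The farthest apart were Tnfaip3 and Tnfaip2 (0.827). Outside the set, among 2119 named genes whose group means spanned at least 1, the nearest to Nfkbia was Ifngr2, a chain of the interferon gamma receptor (0.110), followed by the nicotinic acid receptor Hcar2 (0.121) and Dock9 (0.128). The nearest to Tnfaip3 were Fcrl5 (0.137), Calhm6 (0.189) and Agrn (0.217), and those to Bcl3 were Zc3h12d (0.102), Phlpp1 (0.103) and Atp7a (0.114). For Nfkbiz they were Zfp512 (0.0937), Birc3 (0.103) and Zbtb18 (0.109), for Tnfaip2 Cyth4 (0.0767), Nek6 (0.0960) and Tbc1d8 (0.0964), and for Tlr2 the lysosomal protein Psap (0.125), Pik3r6 (0.132) and Cd274 (0.156). Each gene shares the same 12 arrays, so these distances describe these libraries only.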

How the data were processed

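Expression was measured on 12 Affymetrix arrays, with total RNA extracted by an RNeasy Plus kit and labelled with biotin, per the labels' protocols. The deposited values are log2 expression levels for 23332 probe sets, which the authors computed by RMA with Affymetrix Expression Console, per the submitters' processing notes; no version is given in the sources used here. As RMA equalises the distributions of arrays, it may remove a change common to most genes. The platform annotation named 14996 probe sets by 1 symbol and 1019 by more than 1, and left 7317 without, and 14941 of the first kind matched the RefSeq gene table (GRCm38.p6) by gene identifier. With 1 to 3 arrays in a group, their number limits the precision. The labels' design text speaks of independent experiments, and no other source says whether arrays of a group came from separate mice, so p-values measure only the spread between these arrays.

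A mean was fitted for each of the 5 groups over 12 arrays with limma 3.58.1 in R 4.3.3 (7 residual and 3.06 prior degrees of freedom), with Benjamini-Hochberg adjustment of its p-values over 16015 probe sets with a symbol, at a threshold of 0.05. Errors of changes are limma's standard errors. The fit was tested on simulated data. The genes, lists and rules were chosen with earlier results of these data known. The naming rule took all members in every comparison, up to 5 genes with the smallest p among those passing in each list, or the 2 smallest where none passed, and the 3 genes nearest in pattern to each member whose group means spanned at least 1. Counts of 5 or fewer, and genes marked so, were named outside it. Alternatives were other scalings, a filter at a mean level of 6, the groups compared alone, the replicate number as a block, leaving out each array, and, chosen after seeing the data, leaving out the MIY and Meis1 arrays.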

Additional observations from a re-analysis of the deposited data

How the results depend on the processing

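Of the 8 genes, the number called with added miR-155 against MIG went from 0 to 1 (Bcl3) in the fit on the groups compared, with the replicate block, after quantile normalization, with a mean level of at least 6, and without the MIY and Meis1 arrays, and was 0 to 1 when 1 array was left out. Against the knockout it went from 0 to 1 with the replicate block (Bcl3) and without the MIY and Meis1 arrays (Tnfaip3). Leaving out 1 array gave 3 to 5 of the 8 in MIY against MIG, 4 to 6 in miR-155 against MIY and 7 in every run for Meis1, where only MIG or MIY arrays could be left out, so that these runs do not bear on the 1 Meis1 array. The number called for the knockout against MIG was 0 in every alternative.

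All calls for miR-155 against MIG were 527, and 852 on the groups compared, 1051 without the MIY and Meis1 arrays and 228 to 398 without 1 array. Quantile normalization gave 217 higher and 428 lower, against 98 and 429. For the knockout against MIG there were 5 calls, and 11 on the groups compared, 0 with the replicate block, 13 without the MIY and Meis1 arrays and 0 to 3 without 1 array. For miR-155 against the knockout there were 651, and 1195 without the MIY and Meis1 arrays and 325 to 457 without 1 array. Quantile normalization gave 287 higher and 487 lower there, against 174 and 477. MIY against MIG gave 7921, and 5122 with a mean level of at least 6, where only 9637 probe sets were tested, and quantile normalization gave 3053 higher and 3269 lower. MIY as control of miR-155 gave 7737, and 5082 on the groups compared and 5030 at that level, and quantile normalization gave 3440 higher and 2831 lower. Meis1 gave 4333, and 2021 on the groups compared, 2460 against MIG alone and 7066 against MIY alone. The cause of these moves was not tested where neither fewer probe sets nor other arrays enter.

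Changes of sign were those of values near 0 that passed neither before nor after. Icam1 with miR-155 against MIG was 0.015 after the array shift, 0.031 after quantile normalization and -0.050 to 0.028 without 1 array. In MIY against MIG it was -0.013 with the replicate block and -0.012 to 0.042 without 1 array, and in miR-155 against MIY 0.0085 with the block and -0.059 to 0.018 without 1 array. Tlr2 in MIY against MIG was 0.16 after the shift, 0.10 after quantile normalization and -0.30 to 0.18 without 1 array. Nfkb2 there ranged from -0.016 to 0.11, and Nfkbiz in the knockout from -0.066 to 0.088, without 1 array. The replicate numbers were not taken to pair the arrays: deviations from group means correlated at -0.0667 to 0.164 over 9 same-numbered pairs of the MIG, miR-155 and knockout groups and at -0.146 to 0.114 over 18 others. With the block, the Nfkb2 call against MIY was lost (-0.22, adjusted p = 0.0615) and Icam1 passed with Meis1 (-0.33, adjusted p = 0.0257). In the groups compared alone, Nfkb2 no longer passed against MIY (adjusted p = 0.164) or with Meis1 (0.0742). Each gene had 1 probe set, so no other probe set could be tried.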
